A study of Mus musculus with 2 samples.

Results

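The barcodes described here are those of a mouse pancreatic tumour that carried high levels of both acinar digestive enzyme transcripts and Epcam, which encodes an epithelial adhesion molecule of ducts and of ductal tumour cells. They were selected on measured values: a whole-tumour barcode was included when the summed transcripts of Prss2, Try5, Cpb1, Cel, Clps, Pnliprp1 and Pnliprp2 reached 5000 CPM, the usual scaling of a barcode's unique molecular identifiers (UMIs) to a common total, and Epcam reached 500 CPM. Of 2550 barcodes kept, 298 met both thresholds, a share of 11.7% (exact binomial 95% interval 10.46 to 12.997). They are called double-high barcodes below, and a barcode is not always 1 cell. They were compared with the acinar class, 255 barcodes above the enzyme threshold with Epcam below its threshold, and with the Epcam class, 1755 barcodes above the Epcam threshold and below the enzyme threshold. The other 242 barcodes, low in both, form the double-low class.

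The tumour was a pancreatic ductal adenocarcinoma of an engineered mouse. Its recombinase transgene is Pdx1-Flp. Its other alleles given here are Rosa26mTmG and Rosa26FSF-creER at the Rosa26 locus, and Trp53frt/frt. In this model the Pdx1 promoter, active in the developing pancreas, drives the Flp recombinase, which removes Trp53, and a membrane reporter changes from Tomato to GFP where its switch is recombined. Strain, age, sex, the number of animals and any treatment of them were not given in the sources used here. Tumours were digested with collagenase V and TrypLE and, per the labels, GFP or CD9 was used to sort viable cells, and 3′ tag libraries were made on the 10x Chromium platform. There were 2 libraries, the whole tumour and a sort labelled Cd9 Hi Sorted, and every group had 1 library.

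Acinar cells fill the pancreas with digestive enzymes, among them zymogens, the inactive precursors of proteases. They do so under a transcription factor complex of Ptf1a with Rbpjl, helped by Nr5a2, Gata4 and Bhlha15. Under injury, acinar cells can lose their enzymes and take on keratins, Sox9 and other ductal genes, a change known as acinar-to-ductal metaplasia, which can precede neoplasia. Barcodes that carry both programmes are therefore read with care, because a cell in such a state and a droplet that caught an acinar and a ductal cell share the same 2 sets of transcripts. Free RNA released from lysed acinar cells is a further known source of enzyme transcripts in droplets.

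The factor complex is known to use an E-box beside a TC-rich box, and 3 enzyme promoters are printed, with motifs of these kinds marked, because their genes carry the contrasts described below. They come from RefSeq on GRCm38.p6 and hold the 250 bases before the annotated start, 5′ to 3′ on the gene's strand. Capitals mark E-boxes (CANNTG) and the hexamer TTTCCC or its reverse complement GGGAAA, both searched on both strands, with no overlap between the motifs in these windows. Prss2 (trypsinogen) lies at chr6:41521526-41521775 on the plus strand, Ctrb1 (chymotrypsinogen) at chr8:111691011-111691260 on the minus strand, and Cpa1 (procarboxypeptidase) at chr6:30638968-30639217 on the plus strand.
Prss2: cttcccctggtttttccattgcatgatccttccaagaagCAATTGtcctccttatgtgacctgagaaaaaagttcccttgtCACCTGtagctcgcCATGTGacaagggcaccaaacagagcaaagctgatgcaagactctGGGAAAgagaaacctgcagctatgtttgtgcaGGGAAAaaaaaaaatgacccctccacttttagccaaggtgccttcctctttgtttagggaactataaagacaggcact
Ctrb1: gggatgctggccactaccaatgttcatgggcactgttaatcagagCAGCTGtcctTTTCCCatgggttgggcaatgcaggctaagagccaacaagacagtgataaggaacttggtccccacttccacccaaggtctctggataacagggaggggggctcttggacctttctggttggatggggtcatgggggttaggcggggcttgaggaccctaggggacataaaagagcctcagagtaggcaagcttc
Cpa1: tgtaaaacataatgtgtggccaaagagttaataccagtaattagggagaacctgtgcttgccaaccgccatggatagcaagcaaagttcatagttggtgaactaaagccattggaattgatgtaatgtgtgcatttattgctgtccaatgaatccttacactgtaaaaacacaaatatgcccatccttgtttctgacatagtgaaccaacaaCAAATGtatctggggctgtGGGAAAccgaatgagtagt
The Prss2 window held 3 E-boxes and 2 of the hexamers, whereas the Ctrb1 and Cpa1 windows held 1 of each. Of the 31 acinar secretory genes listed for this work, 23 matched the table, 19 windows held an E-box (82.6%) and 8 held both motifs (34.8%), beside 66.2% and 14.2% of all 32817 windows. A match in letters is not a bound site, and these libraries hold no binding data.

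The values that chose the barcodes are given as a description. Summed over the 7 enzymes, double-high barcodes ranged from 5086 to 193672 CPM with a median of 33964, below the acinar class at a median of 184579 and far above the Epcam class at 75.6 and the double-low class at 78.9. Epcam had a median of 1205 CPM in double-high barcodes and 2311 in the Epcam class. Just outside the enzyme threshold the highest Epcam-high barcode had 4979 CPM, just inside the lowest had 5086, and the corresponding Epcam values were 496 and 504. Between 2500 CPM and the enzyme threshold lay 39 barcodes, and 48 double-high barcodes lay between the threshold and 10000 CPM, so the barcodes form a range along the enzyme axis and not a separate island.

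**Figure D1:**
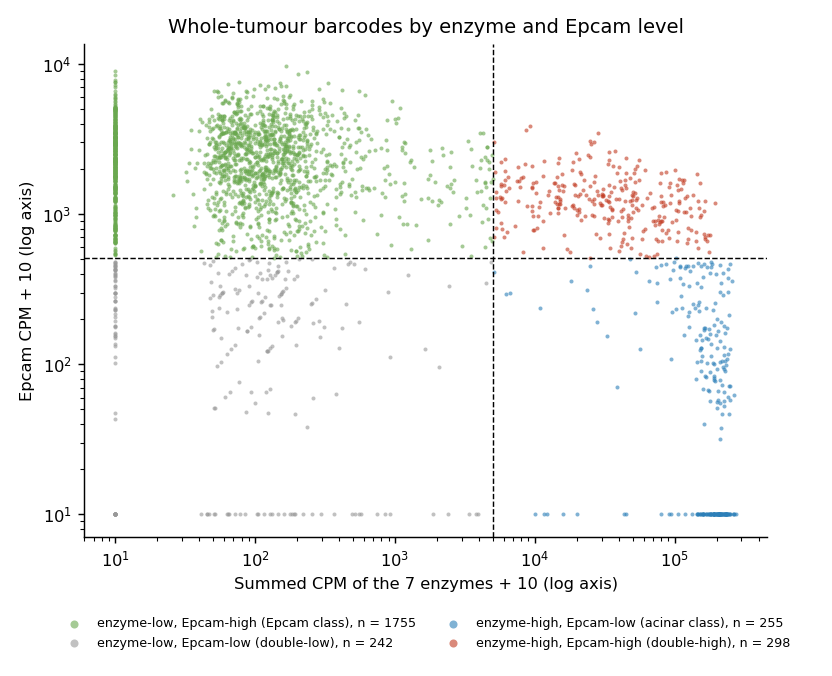
Each point is 1 of 2550 kept whole-tumour barcodes, plotted by the summed CPM of the 7 enzymes and by Epcam CPM, both plus 10 on log axes, with the thresholds dashed. The 298 double-high barcodes spread from the enzyme threshold to 193672 CPM, with a thin continuation below the threshold.

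The label of mixed acinar and ductal cells was set beside markers that the rule did not use. These can vary with the enzymes and Epcam that the rule used, so their presence is a description and not an independent check. Of the 8 acinar markers, Ctrb1 was found in 99.7% of double-high barcodes, Rbpjl in 76.8% and Ptf1a in 74.8%, but Bhlha15, a late acinar maturation factor, in 1.68%, beside 17.6% of the acinar class. Of the ductal markers, Krt7 was found in 95.3% of double-high barcodes, Krt19 in 93.6% and Sox9 in 81.5%. Transcripts of both programmes were found in these barcodes, which the rule selects for, while a mature acinar factor was nearly absent.

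Sequencing depth and the library as a whole set what can be read. The whole-tumour library held 48287984 UMIs over 3082 barcodes, of which 532 failed the filter (no fewer than 500 genes and 1000 UMIs, and a mitochondrial share of 20% or less). The 2 libraries shared 2 barcode sequences, none of them a double-high barcode. GFP had 0 UMIs in both libraries, and TdTomato had 6 in the whole tumour and none in double-high barcodes, whose 6249455 UMIs put the floor of 3 counts at 0.480 CPM, so the reporter does not mark recombined cells here. Trp53 tags were at 109 CPM in double-high barcodes, 22.8 in the acinar class and 203 in the Epcam class, but which part of Trp53 is removed was not given, so these 3′ tags do not check recombination. Acinar cells also belong to the Pdx1 lineage, and the genotype was not read per barcode, so malignant and other pancreatic cells cannot be told apart here. With 1 library a group no test between classes was possible, intervals below cover counting error only, and each class shares the same library, so differences are descriptions of this tumour sample.

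Among the sorted cells the double-high state was almost missing. In the Cd9 Hi Sorted library, 3 of 5092 kept barcodes met both thresholds, a share of 0.0589% (exact binomial 95% interval 0.0122 to 0.172), beside 11.7% in the whole tumour. The acinar class was likewise 2 of 5092 there. Cd9 itself, a surface tetraspanin and the sort marker, was at 381 CPM in double-high barcodes, at 84.2 in the acinar class and at 1373 in the Epcam class. Whether the sort, the tumours used or the dissociation set this gap cannot be told apart with 1 library each.

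UMI totals were compared because a droplet with 2 cells should hold more RNA. Double-high barcodes had a median of 20034 UMIs (quartiles 15722 and 24826), above the acinar class at 14658 and the Epcam class at 17403, ratios of 1.37 and 1.15. The sum of the medians of the acinar and Epcam classes was 32061 UMIs, and 40 double-high barcodes (13.4%) reached it, beside 25 of the acinar class (9.80%) and 93 of the Epcam class (5.30%). At the other end, 98 double-high barcodes (32.9%) had fewer UMIs than the median Epcam barcode. Detected genes had a median of 3905.5 in double-high barcodes, 1315 in the acinar class and 4116 in the Epcam class. Mitochondrial UMIs had a median of 2.56%, 0.361% and 3.91% in the same order.

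**Figure D2:**
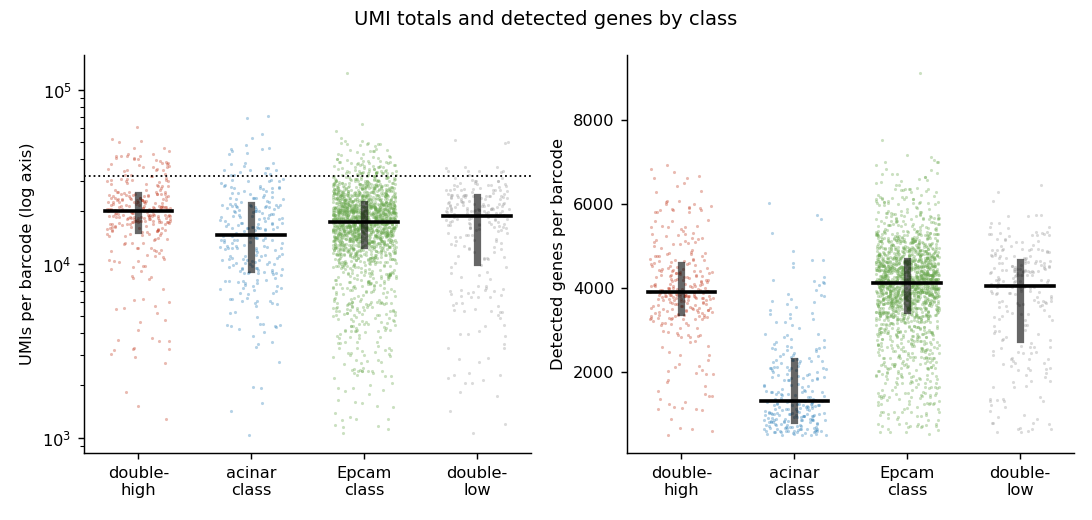
UMIs per barcode (left, log axis) and detected genes per barcode (right) for the 4 classes, with 1 point per barcode, a thick bar over the quartiles and a line at the median. The dotted line at 32061 UMIs is the sum of the acinar and Epcam medians, and 40 of 298 double-high barcodes lie at or above it.

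Doublet scores were computed as another measurement. Scrublet, which scores a barcode by its likeness to added pairs of barcodes, called 14 of 2550 barcodes automatically, and 9 of these were double-high (3.02% of them), none were of the acinar class and 4 were of the Epcam class (0.228%). Among the 63 highest scores, the number expected at 0.8% per 1000 barcodes, 14 were double-high, which is 4.70% of them (exact binomial 95% interval 2.59 to 7.76), beside 0.392% of the acinar class and 2.34% of the Epcam class. The 14 had a median of 32754 UMIs and the other double-high barcodes 19610. How many double-high barcodes are doublets was not tested further. Without the 63 barcodes 284 double-high barcodes were left, and the named genes kept their direction and size class in all 64 comparisons. With only 14 double-high barcodes removed, ratios of class sums could change little, so this does not show how far doublets set them.

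Clustering placed the double-high barcodes mainly in 2 groups. Leiden clustering of all kept barcodes put 203 (68.1%) in cluster 1, 83 (27.9%) in cluster 7, 5 in the cluster that held 194 of 255 acinar barcodes, cluster 6, and 7 elsewhere. Cluster 1 held 310 barcodes, of which 84 were of the Epcam class and 14 of the acinar class, and its leading genes by fold were Ifitm1, Stc1, Mmp3, Pla1a and Kctd14. Cluster 7 held 153 barcodes, of which 46 were of the acinar class and 24 of the Epcam class, and was led by Clca3a2, Cckar, Igf1 and Reg3b. When the 7 enzymes and Epcam were left out of the clustering, 201 and 83 double-high barcodes again fell into a pair of clusters. Cluster 6 was led by acinar secretory genes, among them Pnlip, Try4, Ctrl and Zg16. The clusters are called by their numbers. The genes that define the clusters are not results between them, and the values by cluster below are a description.

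The secretory genes came first in the acinar programme. The enzymes of the rule and 23 other acinar secretory genes took 8.16% of all UMIs of double-high barcodes, 51.7% of those of the acinar class and 0.0692% of those of the Epcam class. In the double-low class the share was 0.0435%, and in the Epcam class outside cluster 1 it was 0.0405%. Single double-low barcodes reached up to 4819 CPM of the 7 enzymes, so that class is low in enzymes but not without them. Of the other secretory genes 21 were tested, that is, had a mean of at least 10 CPM over the 3 classes, and all 21 were at least 2-fold lower in double-high barcodes than in the acinar class and at least 2-fold higher than in the Epcam class. Over all 6996 genes tested, 1.27% were 2-fold lower than in the acinar class and 4.76% were 2-fold higher than in the Epcam class. The rule selects barcodes on enzymes that vary with these genes, so the count against the Epcam class follows from the choice. The acinar class passed the same enzyme threshold and differs by the Epcam threshold. How far that threshold sets the count against the acinar class was not tested.

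The enzymes did not keep 1 proportion to each other. Prss2, a trypsinogen used by the rule, was at 29220 CPM in double-high barcodes and 59201 in the acinar class, a log2 ratio of -1.02. Ctrb1, a chymotrypsinogen that the rule did not use, was at 24249 and 227666 CPM, a log2 ratio of -3.23 (counting interval -3.24 to -3.22). Per secretory UMI, Prss2 made up 35.8% in double-high barcodes, 11.5% in the acinar class and 13.6% in the Epcam class, whereas Ctrb1 made up 29.7%, 44.0% and 48.8%. The ratio of Prss2 to Ctrb1 UMIs was 1.21 in double-high barcodes, 0.260 in the acinar class, 0.280 in the Epcam class and 0.669 in the double-low class. Of 294 double-high barcodes with at least 20 UMIs of the pair, 212 (72.1%) held more Prss2 than Ctrb1, beside 16 of 255 acinar barcodes (6.27%). Because the rule selects on Prss2 and not on Ctrb1, part of this gap follows from the choice.

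The balance also differed between the clusters. Double-high barcodes in cluster 1 held 3.06 Prss2 UMIs for each Ctrb1 UMI, those in cluster 7 held 0.662 and the 12 in other clusters held 0.223. The Epcam barcodes of cluster 1, on the other side of the enzyme threshold, held 0.189, with more Prss2 than Ctrb1 in 9 of 40 (22.5%). Since the rule used Prss2, these ratios are a description and support nothing. Within cluster 1, Prss2 was 54.8% and Ctrb1 17.9% of secretory UMIs, while in cluster 7 the shares were 24.3% and 36.7%. Prss2 itself was level between them, at 29967 and 28739 CPM, and Ctrb1 was at 9799 CPM in cluster 1 and 43411 in cluster 7. Cpa1 was further apart, at 358 and 4455 CPM, and Pnliprp2, a lipase-related protein, went the other way at 889 and 200.3. Of the promoters printed above, that of Prss2 holds the most matches to both motifs, which is a description of its letters. Over 7 other settings of the rule, filter and doublet removal, the ratio in all double-high barcodes ran from 0.807 (Epcam threshold of 250 CPM) to 1.54 (Epcam threshold of 1000 CPM).

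**Figure D3:**
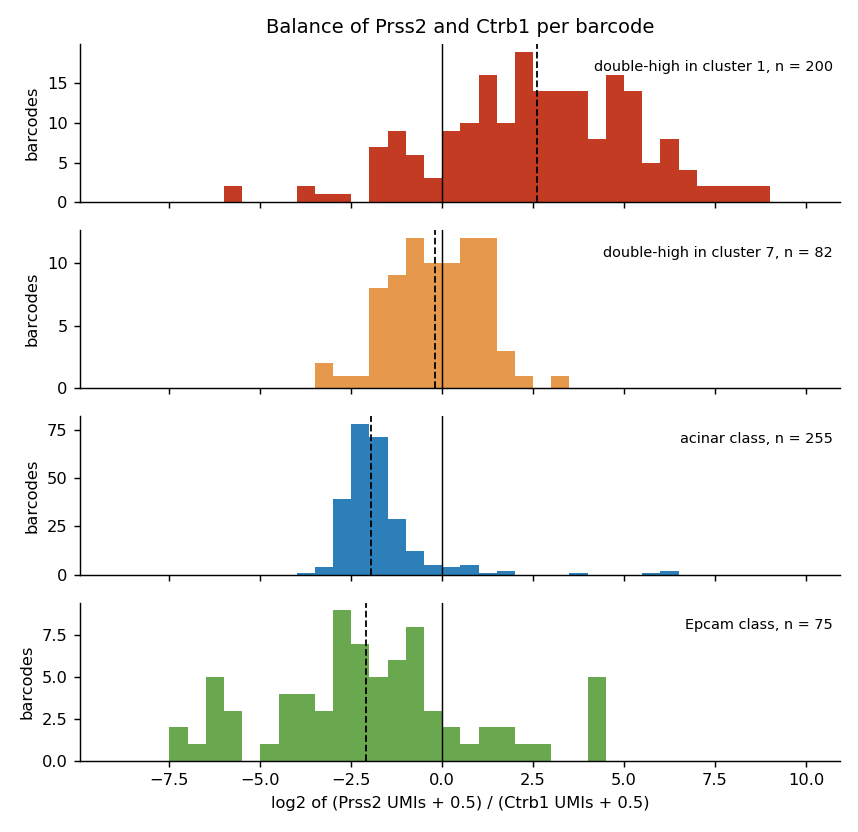
Histograms of the log2 ratio of Prss2 to Ctrb1 UMIs (0.5 added to each) per barcode with at least 20 UMIs of the pair, with the median dashed and equality as a solid line. Cluster 1 double-high barcodes lie mostly to the right of equality (169 of 200), cluster 7 ones straddle it, and 239 of 255 acinar barcodes lie at or to the left of it.

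The named genes furthest below the acinar class were Pnlip, Try4, Zg16, Cela3b and Ctrl. Pnlip, pancreatic lipase, was at 85.4 CPM in double-high barcodes against 3192 in the acinar class, a log2 ratio of -5.22, and 46.3% of its double-high UMIs came from 1 barcode. Try4 (510 against 17688 CPM), Zg16, a zymogen granule protein (157 against 4017), Cela3b, an elastase (788 against 19440), and Ctrl, a chymotrypsin-like protease (165 against 3654), followed. Zg16 was found in 52 of 298 double-high barcodes and Pnlip in 27. Trypsinogen genes are near-identical copies, so their counts can be split between Prss2, Try4, Try5, Try10 and Prss3.

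A gene-wide comparison with the acinar class depends on scale, and this is given before the other groups. Secretory genes took 51.7% of acinar UMIs, which lowers the CPM of other genes there. The median log2 ratio of double-high barcodes to the acinar class over all 6996 genes was 1.56, while against the Epcam class it was -0.27. With secretory genes left out of the totals the median ratio to the acinar class was still 0.61, so their share accounts for part of the shift. By CPM, 5741 genes (82.1%) were at least 2-fold higher and 89 (1.27%) at least 2-fold lower than in the acinar class. Centred on that median, 516 (7.38%) were higher and 508 (7.26%) lower. Levels and ratios to the acinar class below are by CPM and carry this shift, unless given relative to the median of all genes. Against the Epcam class, 333 genes (4.76%) were at least 2-fold higher and 604 (8.63%) at least 2-fold lower.

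By CPM most acinar transcription factors were at or above the level of the acinar class, while the enzymes were far below it. Ptf1a, the bHLH factor that drives zymogen genes, was at 174 CPM in double-high barcodes, 70.0 in the acinar class and 3.70 in the Epcam class, and its log2 ratio to the acinar class was 1.31, or -0.25 relative to the median gene. Its median over double-high barcodes was 105 CPM (quartiles 4.90 and 246, highest 1591), while the median barcode of both other classes had none. Rbpjl, its partner in the acinar complex, was at 129, 97.4 and 2.74 CPM in the same order, and relative to the median gene its log2 ratio to the acinar class was -1.16. Nr5a2, a nuclear receptor of acinar identity, was at 60.2, 37.6 and 4.97 CPM. Xbp1, which expands the secretory apparatus, was at 792, 396 and 140 CPM. Relative to the median gene, Nr5a2 and Xbp1 were also lower in double-high barcodes than in the acinar class. Over the 9 factors tested the median log2 ratio to the acinar class was 1.29 by CPM and -0.27 relative to the median gene, so its sign depends on the scale.

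Counted per barcode, these factors stood far above the level of the Epcam class. After thinning every barcode to 5000 UMIs, which left out 17 double-high, 20 acinar and 103 Epcam barcodes, Ptf1a was found in 47.0% of double-high barcodes (41.0 to 52.99), in 22.1% of the acinar class and in 1.21% of the Epcam class. In unthinned barcodes, whose median UMIs were 20034, 14658 and 17403, Ptf1a was found in 74.8%, 48.6% and 2.39%. Rbpjl was found in 41.6%, 25.96% and 0.847% of thinned barcodes. Thinning evens out total UMIs only, and secretory genes take a larger share of them in the acinar class. Shares of barcodes set against the acinar class, here and below, therefore carry the same scale limit as CPM. Of the 9 listed acinar factors tested, 5 were 2-fold higher than in the acinar class by CPM and none relative to the median gene. The shares of all genes were 82.1% and 7.38%. Against the Epcam class 6 were 2-fold higher, beside 4.76% of all genes. Bhlha15 was the exception, at 0.960 CPM in double-high barcodes and 12.3 in the acinar class, below the level for testing.

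Acinar factors and ductal keratins were found together in single barcodes. After thinning, Ptf1a and Krt19, a duct keratin, were both found in 38.4% of double-high barcodes (32.7 to 44.4), in 5.96% of the acinar class and in 1.21% of the Epcam class. Ptf1a with Sox9, the ductal and progenitor factor, was found in 22.8%, 8.51% and 0.545%. Singly, Ptf1a was found in 47.0%, Krt19 in 81.5% and Sox9 in 52.7% of thinned double-high barcodes. The rule selects on enzymes and Epcam, which can vary with these genes, so the pairs are a description. Whether they were more frequent than the single shares give was not tested. A barcode holding an acinar and a ductal cell would show the same pairs, and its part in these shares was not tested.

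Genes of the secretory machinery were mixed. Of 15 listed genes tested, 2 were at least 2-fold higher than in the acinar class (0 relative to the median gene) and 5 lower (12 relative to the median gene). Of all genes, 82.1% were higher and 1.27% lower by CPM, and 7.38% and 7.26% relative to the median gene. Against the Epcam class 8 were at least 2-fold higher, beside 4.76% of all genes. Cckar, the cholecystokinin receptor through which meals trigger secretion, was at 58.1 CPM in double-high barcodes, 141 in the acinar class and 1.21 in the Epcam class. Among double-high barcodes it was at 194 CPM in cluster 7 and 2.65 in cluster 1, and it is among the genes leading that cluster. Pdia2, a pancreatic disulfide isomerase, was at 23.04, 477 and 0.542 CPM. General translocon genes such as Ssr4 (346, 280 and 340 CPM) and Sec61b (485, 293 and 476) were close to the Epcam class.

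The Reg genes are secreted proteins of the inflamed exocrine pancreas. Reg1 was at 17971 CPM in double-high barcodes, 39162 in the acinar class and 1536 in the Epcam class, and Reg2 at 4224, 28998 and 25.5. Reg3b was at 7664, 25950 and 1214 CPM, and within double-high barcodes at 3488 in cluster 1 and 17538 in cluster 7. Of 13 genes tested in the list of Reg and inflamed-duct genes, 8 were at least 2-fold lower and 2 (Wfdc18 and Cxcl5) higher than in the acinar class. Of all genes, 1.27% were lower and 82.1% higher. Against the Epcam class 8 were at least 2-fold higher and 3 (Wfdc18, Cxcl5 and Lcn2) lower, beside 4.76% and 8.63% of all genes. Lcn2, an inflamed-duct lipocalin, was below both classes, at 226 CPM against 418 and 699.

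The ductal programme was present at a lower level than in the Epcam class. Krt19 was at 680 CPM in double-high barcodes, 74.1 in the acinar class and 1735 in the Epcam class, a log2 ratio of -1.35 to the latter (-1.40 to -1.31). Over double-high barcodes Krt19 had a median of 439 CPM (quartiles 221 and 808), below the lower quartile of the Epcam class (quartiles 544 and 2414). Krt7, its partner in simple ducts, was at 589, 64.3 and 2150 CPM. Sox9 was at 194, 72.5 and 243 CPM, the least apart from the Epcam class of these 3, and its log2 ratio to the acinar class was 1.42, or -0.14 relative to the median gene. Of 21 ductal and progenitor genes tested, 18 were at least 2-fold higher than in the acinar class by CPM, near the 82.1% of all genes. Relative to the median gene 9 were higher, beside 7.38% of all genes. Against the Epcam class 7 were at least 2-fold lower (8.63% of all genes) and 1, Ambp, was higher (4.76%).

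Several ductal, basal and mesenchymal genes were far below the Epcam class. Onecut2, a developmental factor of ducts, was at 97.6 CPM in double-high barcodes, 17.6 in the acinar class and 550 in the Epcam class, and it was found in 21.7% of thinned double-high barcodes and 76.0% of the Epcam class. Car2, a ductal carbonic anhydrase, was at 26.7, 4.11 and 208 CPM. Of all genes tested, 8.63% were at least 2-fold lower than in the Epcam class. All 7 basal genes tested were, among them Krt17 (17.8 against 95.7 CPM) and Gabrp (7.84 against 94.2). Of 6 mesenchymal genes tested, 4 were at least 2-fold lower than in the Epcam class, with Vim at 160 against 996 CPM and Fn1 at 317 against 2333. Vim was found in 16.0% of thinned double-high barcodes, 6.81% of the acinar class and 43.0% of the Epcam class. Jag1, a Notch ligand, was at 32.8 CPM against 92.1.

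Epithelial junction genes had a median log2 ratio of -0.05 to the Epcam class. Of 19 tested, none was 2-fold lower than in the Epcam class (beside 8.63% of all genes) and 3 were 2-fold higher (4.76%). Against the acinar class 17 were 2-fold higher by CPM (beside 82.1% of all genes) and 3 relative to the median gene (7.38%). By CPM 6 were at least 1.5-fold above both classes, beside 5.56% of all genes. Cdh1, E-cadherin, was at 214 CPM in double-high barcodes, 63.4 in the acinar class and 223 in the Epcam class. Cldn18, a gastric-type claudin, was at 183, 4.33 and 48.7 CPM, and Cldn10 at 145, 47.0 and 5.77. Cldn18 was at 267 CPM in the double-high barcodes of cluster 1 and 15.9 in those of cluster 7, and at 322 in the Epcam barcodes of cluster 1.

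**Figure D4:**
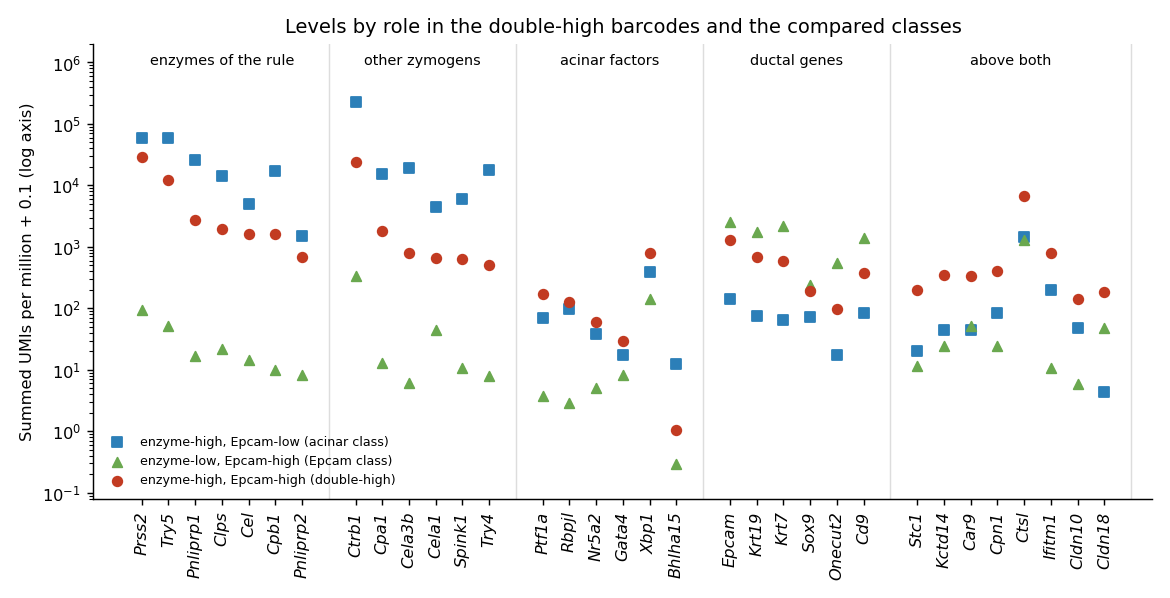
Summed CPM plus 0.1 on a log axis for genes grouped by role, with 1 marker per class: red circles for double-high, blue squares for acinar and green triangles for Epcam barcodes. Enzymes and most ductal genes lie between the classes in double-high barcodes, whereas Ptf1a, Xbp1 and the genes at the right lie above both by CPM.

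Genes outside the range of the compared classes are of interest because the CPM of 2 pooled barcodes cannot lie above both of their own CPM values. Of 6048 genes at least 2-fold apart between the acinar and Epcam classes, 4951 (81.9%) lay between them in double-high barcodes, 1080 lay above both and 17 below both. At least 1.5-fold above both classes were 389 genes (5.56%), and 13 (0.186%) were at least 1.5-fold below both. Centred on the median gene, 186 genes were above both and 112 below both. The compared levels are class sums, and whether particular pairs of barcodes reach such values was not tested.

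Among named genes above both, Stc1, Kctd14 and Car9 came first. Stc1, a secreted glycoprotein induced by stress and hypoxia, was at 200.3 CPM in double-high barcodes, 19.8 in the acinar class and 11.4 in the Epcam class. Car9, a hypoxia-induced membrane carbonic anhydrase, was at 341, 44.5 and 51.5 CPM, with a median of 350.5 over double-high barcodes (quartiles 173 and 507), and it was found in 72.6% of thinned double-high barcodes, 13.2% of the acinar class and 15.7% of the Epcam class. Kctd14 was at 347, 44.5 and 24.3 CPM and Gstm1, a glutathione transferase, at 271, 41.1 and 56.3. These 4 stayed at least 1.5-fold above both when ratios were centred. So did Sema3f, Cpn1 and Ctsl, with centred log2 ratios to the acinar class of 0.76, 0.74 and 0.64. Tspan1, Serpinb1a, Lrmp and Ifitm1 did not, with centred log2 ratios to the acinar class of 0.44 to 0.56. Cpn1, a plasma-type carboxypeptidase subunit, was at 410, 83.02 and 23.9 CPM, and Ctsl, the lysosomal protease cathepsin L, at 6727, 1466 and 1305. Ifitm1, an interferon-induced membrane protein, was at 794, 198 and 10.8 CPM.

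Counts above both in lists of these kinds are set beside the 5.56% of all genes. Against the Epcam class, 4.76% of all genes were 2-fold higher and 8.63% lower. In a list of hypoxia response genes chosen after the ratios were seen, 2 of 13 tested, Car9 and Stc1, were above both classes, and 3 were 2-fold higher and 3 2-fold lower than in the Epcam class, with Vegfa at 66.2 against 142 CPM and Hk2 at 57.1 against 179. In a list of lysosomal genes chosen in the same way, 3 of 14 were above both, with Neu1 (121, 16.2 and 40.7 CPM) beside Ctsl, and 3 were 2-fold lower than in the Epcam class. Stc1, Kctd14, Cpn1 and Ifitm1 are among the 10 leading genes of cluster 1, and their levels differed between the clusters: Stc1 was at 289 CPM in the double-high barcodes of cluster 1 and 12.5 in those of cluster 7, Ifitm1 at 1131 and 149, Cpn1 at 549 and 145, and Kctd14 at 481 and 92.8. In the Epcam barcodes of cluster 1, Stc1 was at 104 CPM, Car9 at 334, Kctd14 at 163 and Ptf1a at 52.4, beside 6.26, 35.9, 16.6 and 1.01 in the Epcam class outside it.

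Gcg also stood above both classes, but 99.8% of its UMIs in double-high barcodes came from 1 barcode, and 0.808 CPM was left without it. Sst, another islet hormone, had UMIs in 3 double-high barcodes, with 74.6% in 1 of them. Below both classes were Tff2 (626, 2220 and 1211 CPM, with 37.4% of its UMIs in 1 barcode), Lcn2, Ggh and Nucb2.

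**Figure D5:**
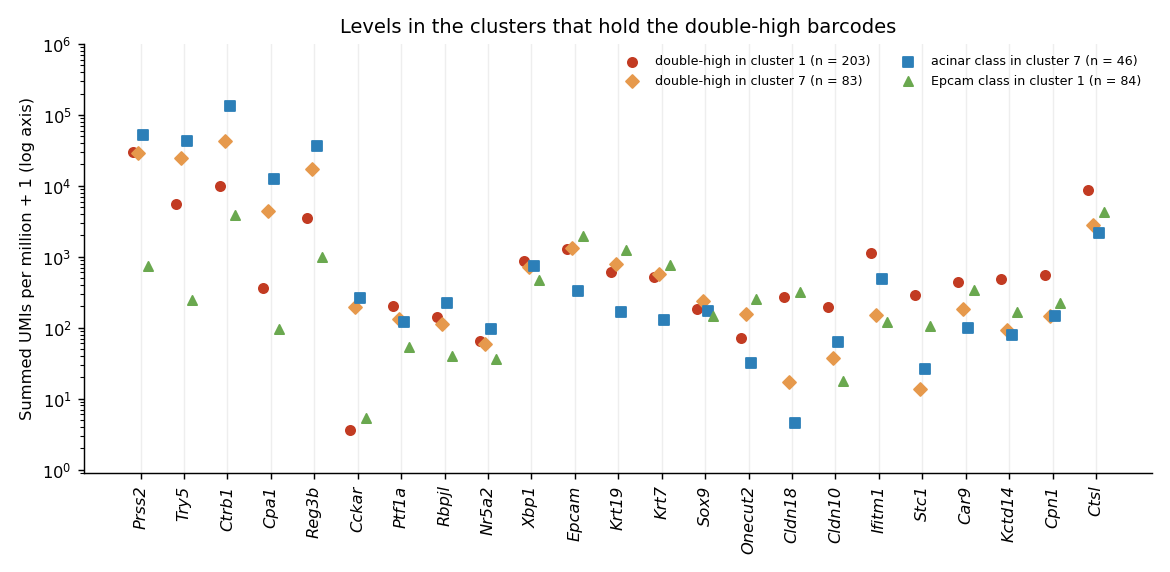
Summed CPM plus 1 on a log axis for 23 genes in the double-high barcodes of clusters 1 and 7, the acinar barcodes of cluster 7 and the Epcam barcodes of cluster 1. Stc1, Cldn18, Cldn10 and Ifitm1 are higher in cluster 1, Ctrb1, Cpa1, Reg3b and Cckar in cluster 7, and Prss2, Ptf1a, Epcam and Krt19 differ little between the double-high barcodes of the clusters.

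Relative to the acinar class, the highest named genes after Gcg and Sst were Cldn18, Gsta4 and Tff1. Cldn18 had a log2 ratio of 5.36, Gsta4, a glutathione transferase, 5.06, and Tff1, a gastric trefoil factor, 4.95 (921 against 29.7 CPM). Relative to the median gene these ratios were 3.80, 3.50 and 3.39. Areg, Pglyrp1, Wfdc2, Anxa13, Ambp, Anxa1 and Gprc5a followed with ratios from 4.64 down to 4.11 (3.08 to 2.55 relative to the median gene). Areg, an EGF-family ligand, was at 111 CPM in double-high barcodes, 4.33 in the acinar class and 441 in the Epcam class. Of 14 classical and gastric genes tested, 10 were at least 2-fold higher than in the acinar class (beside 82.1% of all genes) and 2 lower (1.27%). Relative to the median gene 5 were higher and 3 lower, beside 7.38% and 7.26% of all genes. Summed over the list, the level was 5055 CPM in double-high barcodes, 7138 in the acinar class and 5679 in the Epcam class.

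Relative to the Epcam class, the lowest named gene was Ghrl, the ghrelin precursor, at 2.40 against 855 CPM. Msln, mesothelin, was at 12.96 against 227 CPM, and Cxcl5, a neutrophil chemokine, at 18.1 against 216, with 66.4% of its double-high UMIs in 1 barcode. Stmn2, Npy, Mab21l4, Mcpt8, Anxa8, Ctla2a and Inhba were also at least 2-fold lower. The highest were enzymes, led by Prss2 with a log2 ratio of 8.27, with Klk1, a kallikrein, at 243 against 2.36 CPM.

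Signalling and stress lists had median log2 ratios to the Epcam class from -0.80 (tumour-initiating markers) to 0.41 (proliferation genes), beside -0.27 over all genes. Of all genes tested, 4.76% were 2-fold higher and 8.63% 2-fold lower than in the Epcam class, and 5.56% were 1.5-fold above both classes. Above both were 3 of 11 p53 targets, 3 of 10 proliferation genes, and 2 or fewer in each other list given here. Of 20 immediate early and heat shock genes, which respond to dissociation, none was 2-fold higher than in the Epcam class and 2 were lower, and Fos was at 1357 against 1804 CPM. Of 16 unfolded protein response genes, 2 were 2-fold higher than in the Epcam class, Xbp1 and Sel1l. Of 11 p53 targets, 2 were higher and 2 lower, with Gdf15, a stress cytokine, at 69.6 against 15.2 CPM. Of 10 proliferation genes none was 2-fold apart from the Epcam class, and Mki67 was at 15.4 CPM in double-high barcodes, 8.90 in the acinar class and 8.96 in the Epcam class. Of 6 Notch pathway genes tested, only Jag1 was 2-fold apart, and it was lower. Of 12 tetraspanins, Tspan1 was 2-fold higher and Cd9 2-fold lower, and of 13 tumour-initiating markers 3 were 2-fold lower and none higher.

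Markers of lymphocytes, neutrophils, fibroblasts, endothelium and erythroid cells were at or near 0, while those of macrophages and islets were found. Summed over double-high barcodes, the 10 lymphocyte markers made 0.80 CPM with 6 of 10 at 0, the 6 neutrophil markers 1.12 CPM with 3 at 0, the 10 fibroblast markers 6.08 CPM with 4 at 0, and the 8 endothelial markers 8.96 CPM with 4 at 0. All 5 erythroid markers were at 0 in every class. The 12 macrophage markers summed to 151 CPM, beside 21.7 in the acinar class and 173 in the Epcam class, and Cd74 made 94.6 of these with a highest barcode of 18586 CPM for the list. The 11 tuft cell markers summed to 38.1 CPM with 4 at 0, beside 170.2 in the Epcam class. Islet markers summed to 698.5 CPM, with a median barcode of 0 and a highest of 138981.

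The enzyme level was set beside single genes among double-high barcodes, as a description, since the enzyme and Epcam levels that chose the barcodes limit their range. Over 298 barcodes of 1 library, Spearman's rho of the 7-enzyme CPM was 0.56 with Reg1, 0.29 with Ctrb1, 0.18 with Ptf1a, -0.28 with Epcam and -0.32 with Krt19, and CPM values of 1 barcode share their total, so part of any negative value follows from it. With total UMIs rho was 0.0016. In the 75 barcodes of the group with the lowest enzyme CPM, when the double-high barcodes were split into 4 by that level, Krt19 was at 924 CPM, Krt7 at 818 and Ptf1a at 129, and in the 75 of the highest group they were at 422, 419 and 226. Median UMIs were 21070 and 21861 in these groups, and Car9 (368 and 247 CPM) and Ctsl (6368 and 6684) differed less than 2-fold between them. The groups were cut on the enzyme level, which the rule used, so these values are a description.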

How the data were processed

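Droplet RNA-seq of 2 mouse tumour libraries was used, 1 per group. The authors deposited raw UMI counts per gene and barcode, with no normalization, per the file headers. The submitters' processing notes name Cell Ranger 7.0.0 and the GRCm39 build, and version 6.1.2 stands in the matrix headers. Whether intronic reads were counted is not given in the sources used here.

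Barcodes were kept with no fewer than 500 genes and 1000 UMIs and a mitochondrial share of 20% or less. Members, lists and named genes were chosen with earlier results of these data known, and the hypoxia and lysosomal lists after the ratios were seen. UMIs were summed over the barcodes of a class and divided by the class total. Log2 ratios had 0.5 counts added to each sum and carry exact conditional binomial 95% intervals, which cover counting error only. Genes with a mean of at least 10 CPM over the 3 classes were tested for size, at 2-fold against 1 class and 1.5-fold against both. Of 55361 features, 1705 share a symbol and were kept apart by identifier, and a symbol naming several features was left out of the lists.

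Named genes were, at a mean of at least 50 CPM over the classes compared, the 12 highest and 12 lowest ratios against each class and up to 12 above or below both, without Gm, Rik or mt- models, plus examples from the lists. The lists were the rule enzymes, other acinar secretory genes, acinar transcription factors, secretory machinery, ductal, junction, gastric, Reg, basal, mesenchymal, Notch, p53, immediate early, unfolded protein response, proliferation, tetraspanin and tumour-initiating genes, and markers of tuft, islet, macrophage, lymphocyte, neutrophil, fibroblast, endothelial, erythroid, acinar and ductal cells. Of the 11 tuft markers 2 were tested, 1 of them 2-fold lower than in the Epcam class and none higher.

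Doublets were scored with Scrublet and kept. Clustering used scanpy 1.11.5, 2000 variable genes, 30 components, 15 neighbours and Leiden (leidenalg 0.10.2) at resolution 0.8. Shares of barcodes with a UMI were taken after thinning to 5000 UMIs. Near-identical gene families (trypsinogens, Reg, elastases) are uncertain because counts can be split between copies. The ratio script was tested on simulated data with known answers. Python analyses used numpy 2.4.6, pandas 2.3.3, scipy 1.17.1, scikit-learn 1.9.0 and matplotlib 3.10.9. Alternatives changed the thresholds, filter, doublets, depth, weighting, denominator and gene filter. Some listed items and 1 gene list are not reported here.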

Additional observations from a re-analysis of the deposited data

Results flagged for a closer look

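Outside the comparison, 23 of the 532 whole-tumour barcodes that failed the filter also met the enzyme and Epcam thresholds, above the limit of 3 that a count of 0 allows. They had a median of 1276 UMIs, 398 detected genes and 21.9% mitochondrial UMIs. With them included, 321 barcodes met the rule. No group of 4 to 10 samples existed, so no sample could be set against others.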

How the results depend on the processing

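No paired analysis was possible because each group had 1 library, and no replicate could be left out. The number of double-high barcodes ran from 204 to 350 over the settings that changed it. Counts of genes past a fold followed the gene filter and the scale. Genes 2-fold higher than in the acinar class (5741) numbered 14291 over all genes with a UMI, 1792 at a mean of at least 50 CPM, 3453 at an Epcam threshold of 1000 CPM, 2012 with totals without secretory genes, 516 with centred ratios and 3420 in barcodes of at least 2000 genes, which left 82 acinar barcodes. Those lower (89) numbered 1206, 55, 223 (totals without secretory genes) and 508 (centred). Against the Epcam class, higher genes (333) numbered 3745 over all genes and 136 at 50 CPM, and lower genes (604) numbered 3638, 170, 368 (centred) and 916 (cluster 1 alone). Genes above both (389) numbered 3888, 114 and 186 (centred). Genes below both (13) numbered 508, 4, 112 (centred), 60 (totals without secretory genes), 20 at 5 CPM, 32 (2000 genes), 72 (cluster 1 alone), 22 (rule after thinning), and 8 at an enzyme threshold of 10000 CPM or an Epcam threshold of 250 CPM. The median UMI ratio to the acinar class (1.37) was 1.25 at an Epcam threshold of 1000 CPM, 1.55 with no filter and 1.24 with the rule after thinning.

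Of 1088 log2 ratios of named genes, 1061 kept direction and size class, 16 fell under the fold and 11 reversed. Settings that changed only the gene filter cannot change a ratio, so all 64 were bound to stay the same in each of them. The named genes were picked as the most extreme and include enzymes of the rule, so this tally is not a measure of robustness. At an Epcam threshold of 1000 CPM, Gcg was at -8.41 and Sst at -1.02 against the acinar class, and in cluster 1 alone Sst was at -1.51 against the acinar class and Gcg at -6.07 against the Epcam class. Their UMIs came mostly from 1 barcode each. In cluster 7 alone, against the acinar class, Tff1 was at -2.46, Stc1 at -0.64 and Ifitm1 at -0.41, and the higher ratio of Lcn2 was 0.37, of Ggh 0.26 and of Nucb2 0.10. Of list medians against the acinar class, centring gave -0.27 for acinar factors, -0.34 for tumour-initiating markers and -0.30 for tuft markers. Cluster 1 alone gave -0.63 for tuft and -2.36 for islet markers, and an Epcam threshold of 1000 CPM gave -2.10 for islet markers. Apart from the gene filters and scales, the cause was not tested. Centring, the limit of 2000 genes and the clusters taken alone were chosen after seeing the data. Of 35 shares, 31 moved without thinning, so depth limits them.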
